A study of Mus musculus with 30 samples.

Results

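The 9 genes described here encode the core of the mitochondrial route to apoptosis: Bax, Bak1, Bcl2, Bcl2l1, Mcl1, Bbc3, Pmaip1, Bcl2l11 and Apaf1. They were chosen by name, by looking up each symbol in the deposited tables, where they are 9 of 45594 genes and 38 of 113468 transcripts. The question put to them was whether levels of the death machinery change as retinal neurons form and mature in culture. RNA was measured by stranded, poly(A)-selected RNA-seq in mouse retinal organoids, which are retina-like tissues grown from pluripotent stem cells, on 10 days of differentiation with 3 libraries a day, each called a biological replicate by the submitters.

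All libraries came from 1 induced pluripotent stem cell (iPSC) clone with a wild-type genotype that carries the Nrl-GFP reporter, in which the promoter of the rod gene Nrl drives GFP. The clone was made from fibroblasts of mouse embryos with doxycycline-inducible lentiviral vectors for Oct3/4, Sox2, Klf4 and c-Myc. At D0 the sample was iPSCs kept on feeder cells with LIF and serum, and at D4 it was pools of 36 whole aggregates grown with Matrigel. From D7 on it was neural retina dissected from organoids and pooled, from 30 organoids at D7, 20 at D10 and 12 from D12 to D32. Oxygen was 5% up to D10 and 20% afterwards. The medium changed at D7, again at D10 (taurine, 9-cis retinal and insulin-like growth factor 1 were added) and at D26 (non-essential amino acids, B27 supplement and serum were added). Day, tissue, pooling, oxygen and medium therefore change together and cannot be told apart in these comparisons, and in bulk RNA fewer cells of a type cannot be told apart from less RNA per cell.

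Apoptosis of the mitochondrial type is decided by 3 classes of Bcl2 proteins. The effectors Bax and Bak1 open pores in the outer mitochondrial membrane, the guardians Bcl2, Bcl2l1 (Bcl-xL) and Mcl1 hold them in check, and BH3-only proteins such as Bbc3 (Puma), Pmaip1 (Noxa) and Bcl2l11 (Bim) engage the guardians or the effectors when a cell is stressed or deprived of growth factors. Cytochrome c released through the pores joins Apaf1 in the apoptosome, which activates caspase 9, and in the developing retina this pathway removes a share of the newborn neurons.

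Total counts per library lay between 16773624 and 24526704. Levels are CPM after TMM scaling, counts divided by the scaled size of the library, where 1 CPM stands for 12.8 to 22.4 counts depending on the library, and all 9 genes passed the filter on low counts. Libraries fell into 2 sets by the share of Rpl3 pseudogene copies among Rpl3 counts: 12 libraries (all of D0 and D7 and the second replicate of D10 to D25) with 12% to 31.8%, and 18 with 70.9% to 86.5%. All libraries of D4 and D32 were in the second set. Set therefore changes wholly with day from D0 to D4 and from D4 to D7, so these steps cannot tell day from set. It changes in part from D7 to D10 or D18 and from D18 or D25 to D32. Within D10 to D25, where each day has both sets, 1 of the 9 genes differed between them: Bcl2 was lower in the first set by a log2 difference of -0.48 (SE 0.12, adjusted p = 0.029, edgeR), and 4.71% of tested genes were called. Replicate 2 of D4 had the lowest scaling factor of all (0.5241). Some marker lists moved with the labels. Summed photoreceptor markers were 1.83 to 2.01 CPM at D0 and 7154 to 9136 CPM at D32. Summed proliferation markers fell from 3275 to 3598 CPM at D0 to 62.2 to 79.4 CPM at D32. Summed fibroblast and feeder markers were 446 to 1208 CPM at D0 and at most 145 CPM in any later library. Others had no single direction. Summed neuron markers were 351 to 396 CPM at D0, 89.3 to 317 at D7, 1161 to 1521 at D25 and 978 to 1057 at D32. Single genes weighed heavily in these sums. Stmn2 had a mean of 296 CPM at D0 and 38.4 at D7, while 4 of the 6 markers were called higher and 1 lower (58.4% of all genes called). Snap25 had a mean of 643 CPM at D32, while 4 of the 6 were called lower and 1 higher from D18 to D32 (44.3%). Summed markers of Mueller glia were 479 to 631 CPM at D0, 518 to 544 at D18 and 583 to 778 at D32. Summed markers of microglia, the phagocytes of the retina, were at most 4.28 CPM in every library.

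Sequences are shown for the 2 genes whose transcript shares are described below, chosen after the shares were seen, since they mark what tells the transcripts apart. Bak1 (ENSMUSG00000057789, chr17:27019810-27029009, minus strand, GRCm38) has 4 listed transcripts, of which Bak1-001 and Bak1-002 held nearly all counts. Bak1-002 carries an extra exon of 20 bases (exon 5 of 7, chr17:27021663-27021682), here in capitals between 30 bases of each neighbouring exon, while Bak1-001 joins those neighbours directly; both are coding sequence as annotated in GENCODE M21.
Bak1-002: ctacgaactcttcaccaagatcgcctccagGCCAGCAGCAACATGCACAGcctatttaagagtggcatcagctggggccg
Bak1-001: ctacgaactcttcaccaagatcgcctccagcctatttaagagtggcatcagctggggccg
Since 20 leaves 2 when divided by 3, the exon shifts the reading frame. The annotated coding length is 627 bases in Bak1-001 and 453 in Bak1-002, and the annotation gives Bak1-002 the class of nonsense-mediated decay, the pathway that degrades transcripts with early stop codons. The first exon of Bak1-001 also starts 431 bases further upstream, so reads there separate the transcripts as well and a share below is not a direct measure of exon inclusion.

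Bcl2l1 (ENSMUSG00000007659, chr2:152780668-152831728, minus strand) has 9 listed transcripts. Bcl2l1-001 and Bcl2l1-201 share their second exon and an annotated coding length of 699 bases, and start 1062 bases apart with different first exons, of 126 and 281 bases. The junctions that tell them apart are shown with 15 bases of the first exon in capitals and 15 of the shared exon.
Bcl2l1-001: CGAGCAGTCAGCCAGaaccttatcttggct
Bcl2l1-201: GAGATAGATTTGAATaaccttatcttggct
The 250 bases upstream of the outer start (RefSeq on GRCm38.p6, chr2:152831729-152831978, minus strand) and the 30 bases upstream of the inner RefSeq start, which lies 51 bases from the start of Bcl2l1-201 in the files (chr2:152830718-152830747), are given with each CG dinucleotide in capitals.
outer start: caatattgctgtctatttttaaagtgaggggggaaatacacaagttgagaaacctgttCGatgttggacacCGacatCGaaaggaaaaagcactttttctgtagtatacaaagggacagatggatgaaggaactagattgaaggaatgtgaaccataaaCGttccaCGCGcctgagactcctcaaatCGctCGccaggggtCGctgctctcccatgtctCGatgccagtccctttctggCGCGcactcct
inner start: catacctcCGggagagttctcctgactccc
The outer stretch holds 12 CG dinucleotides and 47.6% G and C, and the 250 bases before the inner start hold 11 and 53.2%. Of the promoter windows of 300 bases in RefSeq, 13 belong to 8 of the 9 genes. None of the 3 windows of Bcl2l1 holds, on either strand, TAATCC (bound by CRX and OTX2; in 7.06% of 32851 windows), TATAAA (13.6%), GGGCGG (SP1; 35.7%) or the E2F motifs TTTCCCGC and TTTGGCGC (1.56%). GGGCGG is in 9 of the 13 windows, those of 6 genes, and TAATCC in 1, that of Bax.

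Of the 9 genes, 8 varied over the 10 days (edgeR's quasi-likelihood test over all days, Benjamini-Hochberg adjusted p from 5e-15 for Pmaip1 to 0.0092 for Apaf1), and 91.4% of all 19897 tested genes did so too. Bbc3 did not pass (adjusted p = 0.16). The mean of the highest day exceeded that of the lowest by 73.3-fold for Pmaip1, 16.3-fold for Bcl2, 6.83-fold for Mcl1, 4.02-fold for Bak1, 3.84-fold for Bcl2l11, 3.49-fold for Bax, 3.09-fold for Bcl2l1 and 1.49-fold for Apaf1. The median over the 9 genes was 3.84-fold and that over all tested genes 5.01-fold. The span of Apaf1 stood at percentile 2.03 of all tested genes, so nearly all others spanned more.

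**Figure D1:**
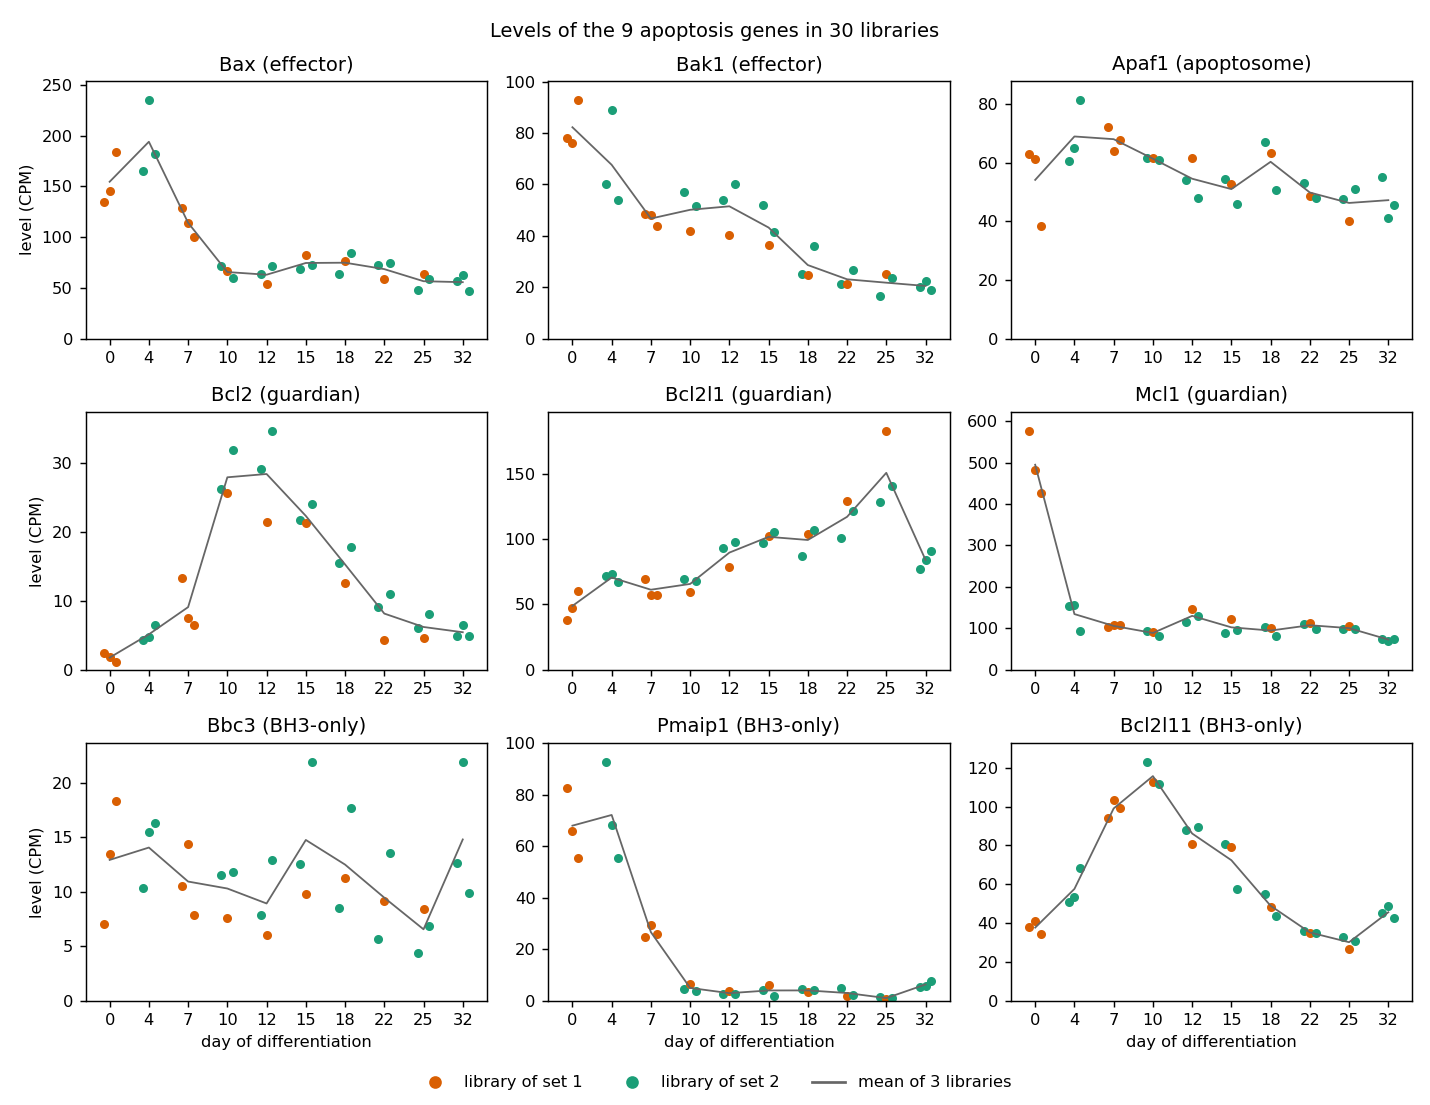
Levels of the 9 genes (y axis, CPM, from 0) by day of differentiation (x axis, days spaced evenly and not to scale). Points are libraries, coloured by library set, and lines join the means of 3 libraries; Bax, Bak1, Mcl1 and Pmaip1 are highest at D0 or D4, Bcl2 and Bcl2l11 at D10 or D12, and Bcl2l1 at D25.

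Both effectors declined. Bax (ENSMUSG00000003873, chr7:45461695-45466898, minus strand) stood at 134, 146 and 184 CPM in the D0 libraries, 165, 235 and 181 at D4, 128, 114 and 100.2 at D7, 63.7, 76.3 and 84.2 at D18, and 57.0, 62.7 and 46.9 at D32. Every D7 library lay below every D0 library, every D18 library below every D7 library, and every D32 library below every D18 library. The decline was not steady: the mean fell from 194 ± 36.4 CPM (SD, n = 3) at D4 to 65.5 ± 5.85 at D10 and day means from D12 to D32 lay between 55.6 and 74.7. The steps with a call were D7 against D4 (log2 change -0.77, SE 0.16) and D10 against D7 (-0.80, SE 0.16). The first of these spans the change from whole aggregates to dissected retina, and did not pass without scaling factors (-0.31, adjusted p = 0.11).

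Over the spans, Bax changed by -0.44 (SE 0.16, adjusted p = 0.022) from D0 to D7, by -0.61 (SE 0.16, adjusted p = 0.0027) from D7 to D18 and by -0.43 (SE 0.16, adjusted p = 0.033) from D18 to D32 on the log2 scale, by edgeR. The last of these did not pass with RLE factors (adjusted p = 0.058), without a filter (0.061), without scaling factors (0.094) or with DESeq2 (0.053), nor when replicate 2 or 3 of D18 or 1 or 3 of D32 was left out, where the change ranged from -0.54 to -0.32. The first did not pass without scaling factors (adjusted p = 0.2), or without D0 replicate 3, D7 replicate 2 or D7 replicate 3, where it ranged from -0.53 to -0.27.

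Bak1 stood at 77.9, 76.0 and 92.8 CPM at D0, 48.5, 47.9 and 43.7 at D7, 57.0, 41.8 and 51.5 at D10, 25.14, 24.7 and 35.9 at D18, and 20.0, 22.5 and 18.9 at D32. D0 lay above all later days except D4, where replicate 2, the library with the lowest scaling factor, reached 88.9. The means of D7 and D12 were 46.7 ± 2.62 and 51.5 ± 9.99 CPM. Bak1 fell by 0.82 (SE 0.20, adjusted p = 0.00098) from D0 to D7 and by 0.71 (SE 0.20, adjusted p = 0.0046) from D7 to D18 on the log2 scale (edgeR). From D18 to D32 the change was -0.48 (SE 0.20, adjusted p = 0.053), with no overlap between the libraries; it passed with library set as a term (adjusted p = 0.022), with only the libraries of those 2 days (0.042) and without the D0 libraries and D4 replicate 2 (0.039). It also passed without any 1 of 7 libraries (adjusted p down to 0.031), while without D18 replicate 3 it was -0.29 (adjusted p = 0.31).

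Bak1-001 held a smaller share of the gene's counts on the late days. Bak1-001, which encodes the full-length protein, held 54.4%, 50.8% and 56.2% of the gene's counts at D0, 46.2%, 47.6% and 47.0% at D18, and 25.09%, 33.8% and 15.7% at D32. Bak1-002, with the frame-shifting exon printed above, held 45.2%, 49.2% and 43.1% at D0, 52.2%, 52.4% and 50.7% at D18, and 74.9%, 66.2% and 84.3% at D32. The mean share of Bak1-001 stayed between 46.9% and 58.4% up to D18, and was 30.9% ± 7.17 at D22, 29.8% ± 6.44 at D25 and 24.9% ± 9.06 at D32, so that every library from D22 on lay below every library up to D18.

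In levels, Bak1-001 went from 46.4 ± 6.53 CPM at D0 to 25.32 ± 1.84 at D7, 12.9 ± 2.15 at D18 and 5.30 ± 2.48 at D32, while Bak1-002 went from 39.3 ± 2.29 to 20.2 ± 1.05, 14.2 ± 2.03 and 15.5 ± 0.34. Tested by itself, Bak1-001 fell from D18 to D32 (log2 change -1.29, SE 0.33, adjusted p = 0.0065, edgeR; 10.6% of 58369 transcripts were called lower) and kept this call without each library of those days in turn. Bak1-002 did not pass (0.12, SE 0.20, adjusted p = 0.76). The test of the difference itself, a transcript's change relative to its gene, did not pass for Bak1-001 (-0.88, adjusted p = 0.57, edgeR) or Bak1-002 (0.53, adjusted p = 1), and this test called 1.26% of 49624 transcripts. A difference between the 2 transcripts in their change is therefore not shown by the test, although the D18 and D32 shares did not overlap. The share of all transcripts without such overlap was not counted. Bcl2l11-001 also had no overlap over this span and did not pass. On simulated data for this comparison the usage test recovered 84% of transcripts changed by 2 log2 units and 19% of those changed by 1. These sizes are changes in level, for which the median estimated change relative to the gene was 1.46 and 0.724. The simulation gave all transcripts the same spread, changed only well-counted ones and held no error in assigning reads to transcripts. Its shares therefore need not hold for Bak1.

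**Figure D2:**
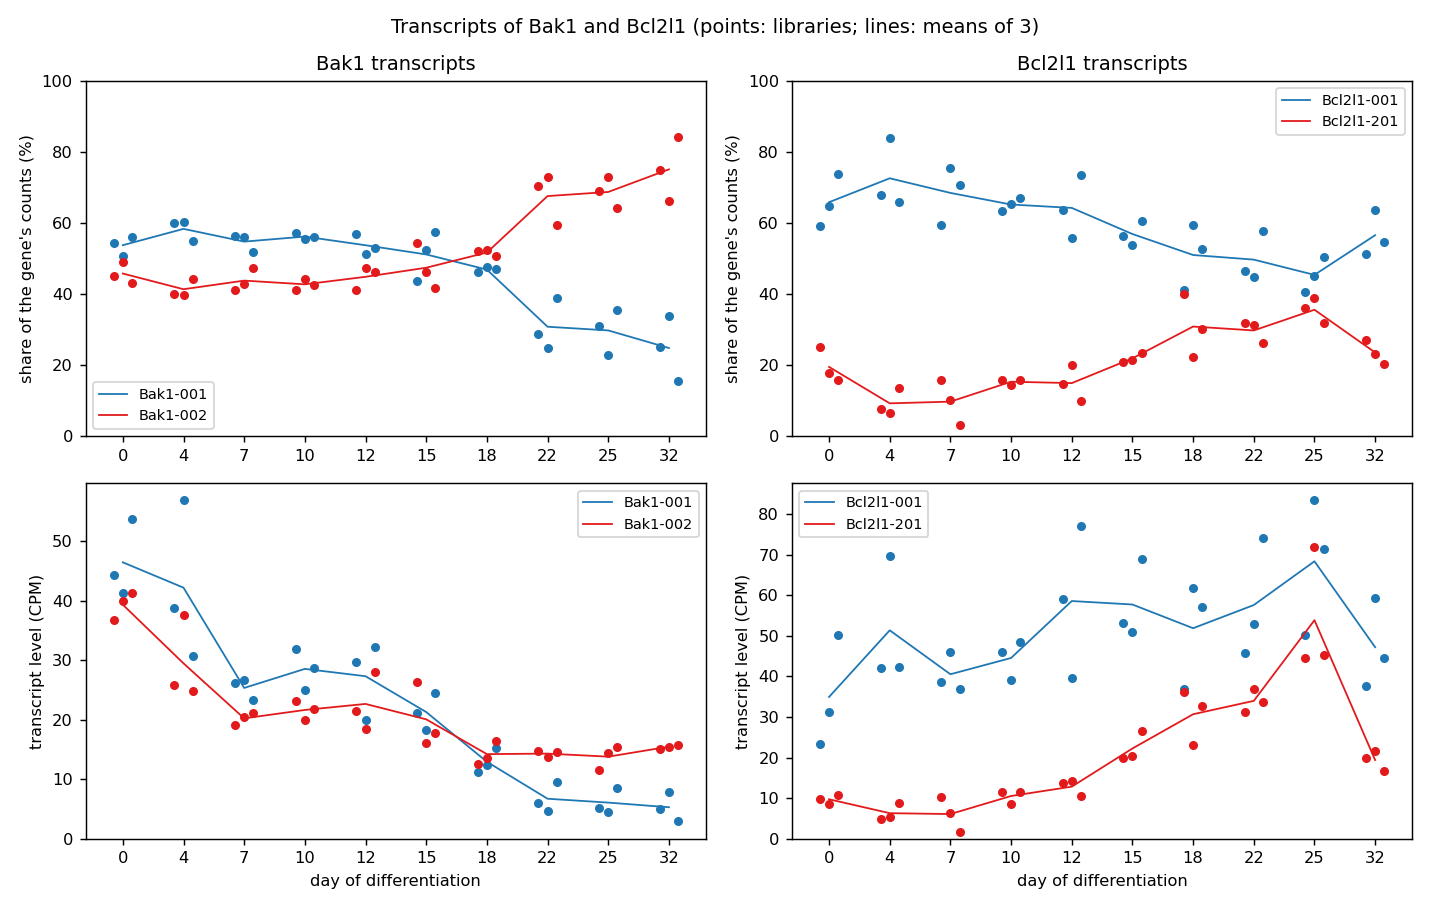
Share of the gene's counts in percent (upper row) and level in CPM (lower row) of the 2 main transcripts of Bak1 and of Bcl2l1, by day (x axis, days spaced evenly). Points are libraries and lines means of 3; the mean Bak1-001 share is 46.9% at D18 and 24.9% at D32, and the mean Bcl2l1-201 share 9.77% at D7 and 35.6% at D25.

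The guardians followed 3 different courses. Mcl1 (ENSMUSG00000038612, chr3:95658788-95663176, plus strand), a short-lived guardian on which many dividing cells depend, stood at 576, 483 and 426 CPM at D0, 154, 156 and 92.6 at D4, 102, 107 and 107 at D7, 103, 99.7 and 80.5 at D18, and 74.1, 68.7 and 74.7 at D32. The D0 libraries stood apart from all others. The change from D0 to D4 was -1.88 (SE 0.16, adjusted p = 5.5e-10) and that from D0 to D7 was -2.23 (SE 0.16, adjusted p = 2e-11) on the log2 scale (edgeR). Summed feeder markers were also highest at D0, and their part in the D0 level was not tested.

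After D4, Mcl1 moved little, with means between 72.5 and 130 CPM. It rose from D10 to D12 (0.55, SE 0.16, adjusted p = 0.045), a call lost without any 1 of 19 libraries, and fell from D25 to D32 (-0.47, SE 0.16, adjusted p = 0.033), a call lost without any 1 of the 6 libraries of those days, with RLE factors (adjusted p = 0.053), without scaling factors (0.12), without a filter (0.052) and with library set as a term (0.052). The span from D7 to D18 did not pass (-0.16, SE 0.16, adjusted p = 0.41, edgeR), and neither did that from D18 to D32 (-0.38, SE 0.16, adjusted p = 0.052), which passed with only the libraries of those days (0.034), in the limma fits on deposited values (0.048 and 0.05) and without any 1 of 6 libraries (adjusted p down to 0.014).

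Bcl2l1, the guardian that keeps many postmitotic neurons alive, moved the other way. It stood at 38.2, 47.6 and 60.6 CPM at D0, 69.4, 57.6 and 56.8 at D7, 87.5, 104 and 107 at D18, 129, 183 and 141 at D25, and 77.3, 83.9 and 91.1 at D32. Every D18 library was above every D7 library, and every D25 library above every D18 library. The change from D7 to D18 was 0.70 (SE 0.15, adjusted p = 0.00034, edgeR) on the log2 scale. From D25 to D32 it fell by 0.84 (SE 0.15, adjusted p = 0.00013), back to a level that did not differ from D18 by the test (-0.24, SE 0.15, adjusted p = 0.19).

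The transcript with the inner first exon, Bcl2l1-201, had a low share at D4 and D7 and a higher one at D18 and D25. It held 25.08%, 17.7% and 15.8% of the gene's counts at D0, 15.9%, 10.26% and 3.18% at D7, 40.2%, 22.26% and 30.3% at D18, 36.1%, 38.8% and 32.0% at D25, and 27.13%, 23.26% and 20.42% at D32. The D0 libraries overlapped those of D7, D18 and D32, and the share had no single direction over the course. Its level went from 6.09 ± 4.35 CPM at D7 to 30.7 ± 6.77 at D18 and 53.9 ± 15.6 at D25, and back to 19.4 ± 2.55 at D32. Bcl2l1-001 stood at 40.5 ± 4.87, 51.9 ± 13.2, 68.4 ± 16.8 and 47.2 ± 11.1 CPM on these days.

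Relative to its gene, Bcl2l1-201 rose from D7 to D18 by 1.57 on the log2 scale (adjusted p = 0.024, edgeR), the only 1 of 33 such tests over 11 transcripts of the 9 genes to pass, where 2.40%, 1.30% and 1.26% of all transcripts did so over the 3 spans. The adjusted p reached 0.36 when single libraries were left out and the call was lost without D7 replicate 2 or 3 or D18 replicate 1 or 3, with the change between 1.22 and 2.11. As a level, Bcl2l1-201 rose by 2.37 (SE 0.38, adjusted p = 5.8e-05; 12.4% of transcripts were called higher) and Bcl2l1-001 did not pass (0.39, SE 0.30, adjusted p = 0.42). Kallisto assigns reads shared by the transcripts by estimate, and the error of that estimate is not in these values.

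Bcl2 (ENSMUSG00000057329, chr1:106538178-106714274, minus strand), the founding guardian, rose and fell within the period of dissected retina. It stood at 2.38, 1.81 and 1.04 CPM at D0, 13.3, 7.54 and 6.44 at D7, 26.3, 25.7 and 31.9 at D10, 15.5, 12.5 and 17.8 at D18, and 4.92, 6.45 and 4.93 at D32. The D10 and D12 libraries lay above those of D0, D4, D7 and D18 to D32. It rose from D0 to D7 by 2.38 (SE 0.34, adjusted p = 1.4e-06) and from D7 to D10 by 1.62 (SE 0.30, adjusted p = 0.00016), and fell from D18 to D32 by 1.49 (SE 0.31, adjusted p = 0.00028) on the log2 scale (edgeR).

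The net change of Bcl2 from D7 to D18, 0.75 (SE 0.30, adjusted p = 0.041), depended on the processing. The libraries overlapped, the call was lost without any 1 of 7 libraries (0.52 to 1.13), with RLE factors (adjusted p = 0.05), without a filter (0.059) and with library set as a term (0.24). Bcl2 is the gene that differed between the sets, and all D7 libraries belong to the first.

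**Figure D3:**
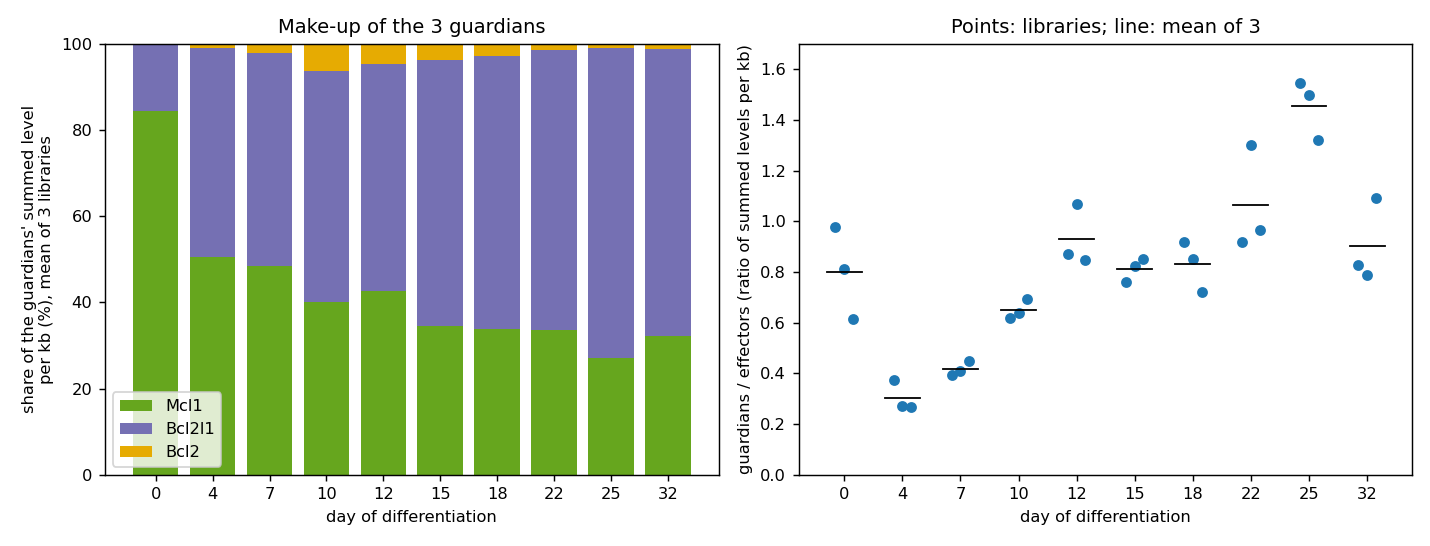
Left: mean share (y axis, %) of Mcl1, Bcl2l1 and Bcl2 in the summed level per kb of the 3 guardians, by day. Right: summed level per kb of the guardians divided by that of Bax and Bak1 in each library (points), with the mean of 3 (line); the ratio is lowest at D4 (0.303) and highest at D25 (1.46).

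Per kilobase of transcript, the scale on which genes can be compared with each other, Bax was the highest of the 9 genes on every day except D25, where Bcl2l1 was. At D0 the level was 179 CPM per kb for Bax, 146 for Mcl1, 40.2 for Bak1, 25.8 for Bcl2l1 and 0.256 for Bcl2. At D25 it was 77.9 for Bcl2l1, 64.2 for Bax, 29.1 for Mcl1, 10.19 for Bak1 and 0.900 for Bcl2. Mcl1 made up 84.5% ± 4.90 of the summed guardian level at D0, 48.4% ± 3.64 at D7, 33.8% ± 4.90 at D18 and 27.2% ± 2.67 at D25, and Bcl2l1 made up 15.4% ± 4.94, 49.6% ± 2.94, 63.4% ± 4.75 and 71.9% ± 2.91 on these days. Bcl2 never exceeded 7.25% in any library.

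The summed guardians divided by the summed effectors, as a description of RNA levels per kb, gave 0.8005 ± 0.182 at D0, 0.303 ± 0.0599 at D4, 0.418 ± 0.0289 at D7, 0.831 ± 0.1002 at D18, 1.46 ± 0.118 at D25 and 0.903 ± 0.166 at D32. The D25 libraries (1.32 to 1.54) lay above those of all other days, and D22 was next with 0.919 to 1.30. The D32 libraries (0.788 to 1.09) overlapped those of D18 (0.721 to 0.918). The Bak1 part of the sum includes Bak1-002, which is annotated for decay, and RNA levels do not give protein levels.

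Of the BH3-only genes, Pmaip1 (ENSMUSG00000024521, chr18:66458604-66465550, plus strand), a target of p53 whose product binds Mcl1, had the widest span of the 9. It stood at 82.5, 66.1 and 55.4 CPM at D0, 92.7, 68.3 and 55.5 at D4, 24.6, 29.4 and 25.9 at D7, 4.47, 6.55 and 3.79 at D10, 1.40, 0.506 and 1.04 at D25, and 5.36, 5.74 and 7.75 at D32. The groups D0 and D4 overlapped, D7 lay below them and D10 below D7. The change was -1.35 (SE 0.32, adjusted p = 0.00078) from D0 to D7 and -2.74 (SE 0.35, adjusted p = 4.6e-07) from D7 to D18 on the log2 scale (edgeR).

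Bcl2l11, whose product responds to growth factor withdrawal in neurons, had its highest mean at D10. It is ENSMUSG00000027381 at chr2:128126038-128162547 on the plus strand and stood at 37.7, 40.9 and 34.3 CPM at D0, 94.3, 103 and 99.3 at D7, 123, 113 and 111 at D10, 54.7, 48.2 and 43.7 at D18, and 32.8, 26.8 and 30.8 at D25. D7 and D10 lay above all other days. The change from D7 to D10 did not pass (0.22, SE 0.13, adjusted p = 0.17, edgeR). On sums of its transcripts the means were 97.3 ± 6.11 CPM at D7 and 100.3 ± 3.88 at D10. The rise from D0 to D7 was 1.40 (SE 0.13, adjusted p = 1.3e-09) and the fall from D7 to D18 was -1.02 (SE 0.13, adjusted p = 3.6e-07) on the log2 scale (edgeR). Its long transcript Bcl2l11-001, with a coding length of 588 bases, held 64.1% to 86.7% of the counts in every library and Bcl2l11-005, with 420 bases, 5.73% to 23.3%.

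From D18 to D32 the change of Bcl2l11 was -0.10 (SE 0.13, adjusted p = 0.55) on the deposited gene values and 0.28 (adjusted p = 0.07) on sums of its transcripts, where the mean was 44.8 ± 6.22 CPM at D18 and 53.7 ± 0.45 at D32, so no direction is given. Bbc3 (ENSMUSG00000002083, chr7:16309616-16318205, plus strand), another p53 target, was low throughout, between 4.35 and 21.9 CPM, and varied widely within days: 7.02, 13.4 and 18.32 CPM at D0, 10.6, 14.4 and 7.86 at D7, 8.48, 11.3 and 17.7 at D18, and 12.6, 21.9 and 9.92 at D32. No span passed for it.

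Apaf1 (ENSMUSG00000019979, chr10:90989311-91082770, minus strand) stood at 62.9, 61.05 and 38.3 CPM at D0, 72.1, 63.9 and 67.8 at D7, 67.0, 63.1 and 50.6 at D18, and 55.2, 40.9 and 45.4 at D32. Neighbouring days overlapped except D7 and D10, and none of its 9 steps passed. The spans gave 0.33 (SE 0.16, adjusted p = 0.081), -0.17 (SE 0.16, adjusted p = 0.39) and -0.35 (SE 0.16, adjusted p = 0.077, edgeR). The last passed without any 1 of 3 libraries (D0 replicate 3, D18 replicate 3 or D32 replicate 1; adjusted p down to 0.033) and on sums of transcripts (0.049). The call over all days did not hold without scaling factors (adjusted p = 0.21).

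**Figure D4:**
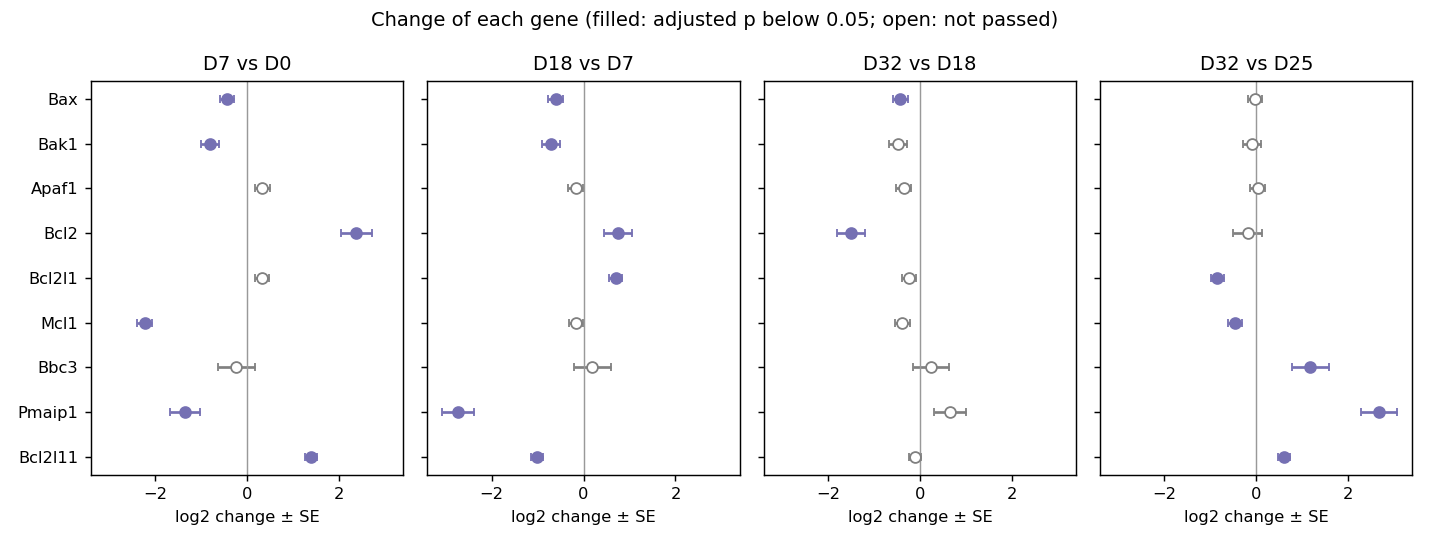
Log2 change of each gene (x axis, later day minus earlier day) with its standard error for 3 spans and the last step. Filled points passed at adjusted p below 0.05 and open points did not; from D25 to D32 the BH3-only genes lie to the right of 0 and Bcl2l1 and Mcl1 to the left.

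Counted over the spans, 2 of the 9 genes rose and 4 fell from D0 to D7 (58.4% of all genes were called). From D7 to D18 again 2 rose and 4 fell (49.1% called), and from D18 to D32 none rose and 2, Bax and Bcl2, fell (44.3% called). The median log2 changes of the 9 genes were -0.24, -0.17 and -0.35, beside 0, 0.054 and -0.005 over all tested genes. Of 14 calls, 11 held under every alternative tried, the exceptions being the Bax calls from D0 to D7 and from D18 to D32 and the Bcl2 call from D7 to D18.

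Over the 9 steps between sampled days, 21 of 81 tests passed, 10 higher and 11 lower, beside 20.1% of all tests of all genes. Without scaling factors 13 passed. The steps with the most were D7 against D4 and D32 against D25, with 5 each (42.8% and 23.1% of all genes called), D4 against D0 with 4 (51.9%) and D10 against D7 with 3 (37.8%). In each of these steps the days compared also differ in library set, wholly or in part. From D10 to D25 the calls were 1 at D12 against D10 (Mcl1 higher, 4.41% of all genes called), none at D15 against D12 (7.41%), 1 at D18 against D15 (Bcl2l11 lower, 2.89%), 1 at D22 against D18 (Bcl2l11 lower, 8.20%) and 1 at D25 against D22 (Pmaip1 lower, 2.47%). Each of these 4 calls was lost without any 1 of 3 or more libraries. Same-numbered libraries of D10 to D25 deviated together, and a fit of these 18 libraries alone with the replicate number as a block called 8 of 45 tests (11.8% of all tests of all genes), against 5 without the block (8.19%). On each of these days the second replicate was the only library of the first set, so the block also takes up the library set. The 8 held the 4 above, Bcl2l1 higher and Bcl2l11 lower at D12 against D10, Mcl1 lower at D15 against D12 (-0.37, SE 0.11, adjusted p = 0.03) and Bcl2 lower at D22 against D18 (-0.94, SE 0.17, adjusted p = 0.0016, edgeR). Without the block Pmaip1 at D25 against D22 did not pass in these libraries (adjusted p = 0.064).

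From D25 to D32 the 3 BH3-only genes rose and 2 guardians fell, 5 of the 9 genes, where 23.1% of all genes were called. Pmaip1 rose by 2.67 (SE 0.40, adjusted p = 1.7e-05), Bcl2l11, at 45.1, 48.7 and 42.8 CPM at D32, by 0.60 (SE 0.13, adjusted p = 0.0012) and Bbc3 by 1.18 (SE 0.41, adjusted p = 0.038) on the log2 scale, while Bcl2l1 and Mcl1 fell as given above (edgeR). For all 5 genes the D25 and D32 libraries did not overlap, but the share of all genes without overlap was not counted. Bbc3 did not pass over all 10 days (adjusted p = 0.16, edgeR). Beyond the 9 genes, the day means of the BH3-only genes Bid, Bad and Bik were lower at D32 than at D25. Those of Bmf and Hrk were higher, as was that of the guardian Bcl2l2. Calls of these other genes were not counted for this step. The rises of Pmaip1 and Bcl2l11 and the fall of Bcl2l1 held under every alternative run; that of Bbc3 did not pass with library set as a term (adjusted p = 0.071) or without any 1 of 4 libraries of those days, where it lay between 0.79 and 1.39. The medium change at D26 lies inside this step, as does the fall of summed proliferation markers from 427 to 711 CPM to 62.2 to 79.4 CPM. Summed photoreceptor markers rose from 3611 to 5389 CPM to 7154 to 9136 CPM. The summed p53 pathway genes described below rose from 666 to 823 CPM to 1135 to 1382 CPM. The part of the medium and of these genes in the step was not tested.

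Other genes of the pathway were read from lists, whose counts stand beside the 58.4%, 49.1% and 44.3% of all tested genes called from D0 to D7, D7 to D18 and D18 to D32. Of 5 further guardians 1 was tested: Bcl2l2 (Bcl-w), common in adult neurons, rose from 28.3 ± 4.46 CPM at D7 to 54.4 ± 4.46 at D18 (0.94, SE 0.14, adjusted p = 2.5e-06) and to 77.4 ± 2.21 at D32 (0.51, SE 0.13, adjusted p = 0.0028, edgeR). The effector relative Bok fell from 13.3 ± 4.72 CPM at D0 to 4.21 ± 1.74 at D7 (-1.66, SE 0.41, adjusted p = 0.0012). Of 5 further BH3-only genes, 2 rose and 2 fell from D0 to D7, 2 rose and 1 fell from D7 to D18, and 1 rose and 2 fell from D18 to D32, so 3 of 5 passed in each later span, beside 49.1% and 44.3% of all genes.

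Among these, Bmf, a BH3-only protein tied to the cytoskeleton, rose from 18.9 ± 4.25 CPM at D0 to 80.3 ± 4.06 at D7, fell to 6.19 ± 2.85 at D18 (-3.70, SE 0.30, adjusted p = 2.2e-10) and rose to 16.9 ± 1.63 at D32 (1.45, SE 0.28, adjusted p = 0.00013, edgeR). Bid, which links death receptors to mitochondria, fell from 55.6 ± 2.44 CPM at D0 to 16.7 ± 2.94 at D7. Hrk, a BH3-only gene of neurons, rose from 6.58 ± 0.59 CPM at D7 to 14.3 ± 0.40 at D18.

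Of caspases and their substrates (10 tested), 5 fell and none rose from D18 to D32, with a median of -0.40 (44.3% of all genes were called in this span, so 5 of 10 is near that share), while 4 rose and 1 fell from D0 to D7 and 1 rose and 2 fell from D7 to D18. Casp2, an initiator caspase, went from 77.6 ± 6.89 CPM at D18 to 31.1 ± 3.16 at D32 (-1.32, SE 0.15, adjusted p = 9.3e-08, edgeR). Casp6, an executioner, went from 26.9 ± 0.70 to 12.96 ± 0.68 CPM (-1.05, SE 0.21, adjusted p = 0.00024), and Casp9, activated by the apoptosome, from 41.6 ± 2.18 to 28.7 ± 1.59 CPM (-0.54, SE 0.13, adjusted p = 0.0015). Casp8, the initiator of the death receptor route, also fell (-1.88, adjusted p = 6.4e-05, edgeR). Its level was low, 4.26 ± 0.31 CPM at D18 and 1.15 ± 0.36 at D32, below the 5 CPM asked of named genes. All 6 proliferation markers fell over the same span, with a median of -4.40, and their part in the fall of the caspases was not tested.

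Inhibitors of apoptosis and their antagonists (8 tested) were split from D18 to D32, with 1 higher and 3 lower, 4 of 8 beside 44.3% of all genes. Xiap, which blocks caspases directly, rose from 80.8 ± 7.78 to 151 ± 26.6 CPM (0.90, SE 0.18, adjusted p = 0.00021, edgeR). Birc5 (survivin), which also acts in cell division, fell from 69.0 ± 11.7 to 3.25 ± 0.53 CPM (-4.41, SE 0.20, adjusted p = 1.4e-14), and Diablo, the mitochondrial antagonist of these inhibitors, from 88.6 ± 4.92 to 61.6 ± 4.45 CPM (-0.52, SE 0.14, adjusted p = 0.0035).

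In the p53 pathway (13 tested), 7 genes fell and 2, Mdm4 and Cdkn1a, rose from D7 to D18, with a median of -0.75, beside 49.1% of all genes called and a median of 0.054. Trp53 itself went from 208 ± 17.6 to 79.1 ± 4.82 CPM (-1.39, SE 0.17, adjusted p = 1.5e-07, edgeR), and its target Phlda3 from 50.2 ± 1.80 to 20.3 ± 2.28 CPM (-1.31, SE 0.27, adjusted p = 3e-04). From D18 to D32, 2 rose and 3 fell (44.3% of all genes called). This span passes over a low level at D25: the summed level of the 13 genes was 1105 to 1310 CPM at D18, 666 to 823 at D25 and 1135 to 1382 at D32. Trp53 itself stood at 54.4 ± 1.36 CPM at D25 and 52.3 ± 8.80 at D32. Calls in this list were not counted for the step from D25 to D32. In the death receptor pathway (7 of 8 tested) 3, 2 and 1 genes rose and 1, 2 and 3 fell over the 3 spans; Cflar, which blocks caspase 8, rose from 34.2 ± 3.34 CPM at D18 to 61.5 ± 0.63 at D32 (0.84, SE 0.12, adjusted p = 2e-06).

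Among stress and cell cycle regulators of BH3-only genes (9 tested), 5 rose and 1 fell from D7 to D18 and 6 rose and 1 fell from D18 to D32, beside 49.1% and 44.3% of all genes called. E2f1, a cell cycle factor, was the 1 that fell late, from 113 ± 15.28 to 14.8 ± 2.48 CPM (-2.93, SE 0.21, adjusted p = 1.7e-11, edgeR). Foxo3, a transcription factor that can activate Bcl2l11, rose from 69.5 ± 5.61 CPM at D7 to 151 ± 17.3 at D18 (1.12, SE 0.17, adjusted p = 5.8e-06). Bcl2l11 fell over this span, and a link between these genes was not tested. Foxo1 rose from 8.59 ± 0.45 CPM at D18 to 22.7 ± 0.76 at D32 (1.40, SE 0.18, adjusted p = 6.7e-07).

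Of 3 splicing regulators, Ptbp1, which is known to repress neuronal exons, fell from 700 ± 56.9 CPM at D7 to 286 ± 28.3 at D18 (-1.29, SE 0.19, adjusted p = 4.7e-06) and to 106 ± 19.3 at D32 (-1.44, SE 0.19, adjusted p = 1.1e-06, edgeR). Srrm4, which promotes neuronal exons, rose from 16.2 ± 11.6 CPM at D7 to 140 ± 28.6 at D18 (3.11, SE 0.29, adjusted p = 3.4e-09). Ptbp2 rose from 33.1 ± 2.06 CPM at D0 to 301 ± 14.3 at D7 (3.18, SE 0.13, adjusted p = 8e-16, edgeR). It then fell to 221 ± 20.7 at D18 and 145 ± 8.47 CPM at D32. The mean Bak1-002 share was 45.8% at D0, 43.8% at D7, 51.7% at D18, 67.6% at D22 and 75.1% at D32, so most of its rise came after D18. No link between the regulators and the exon was tested.

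**Figure D5:**
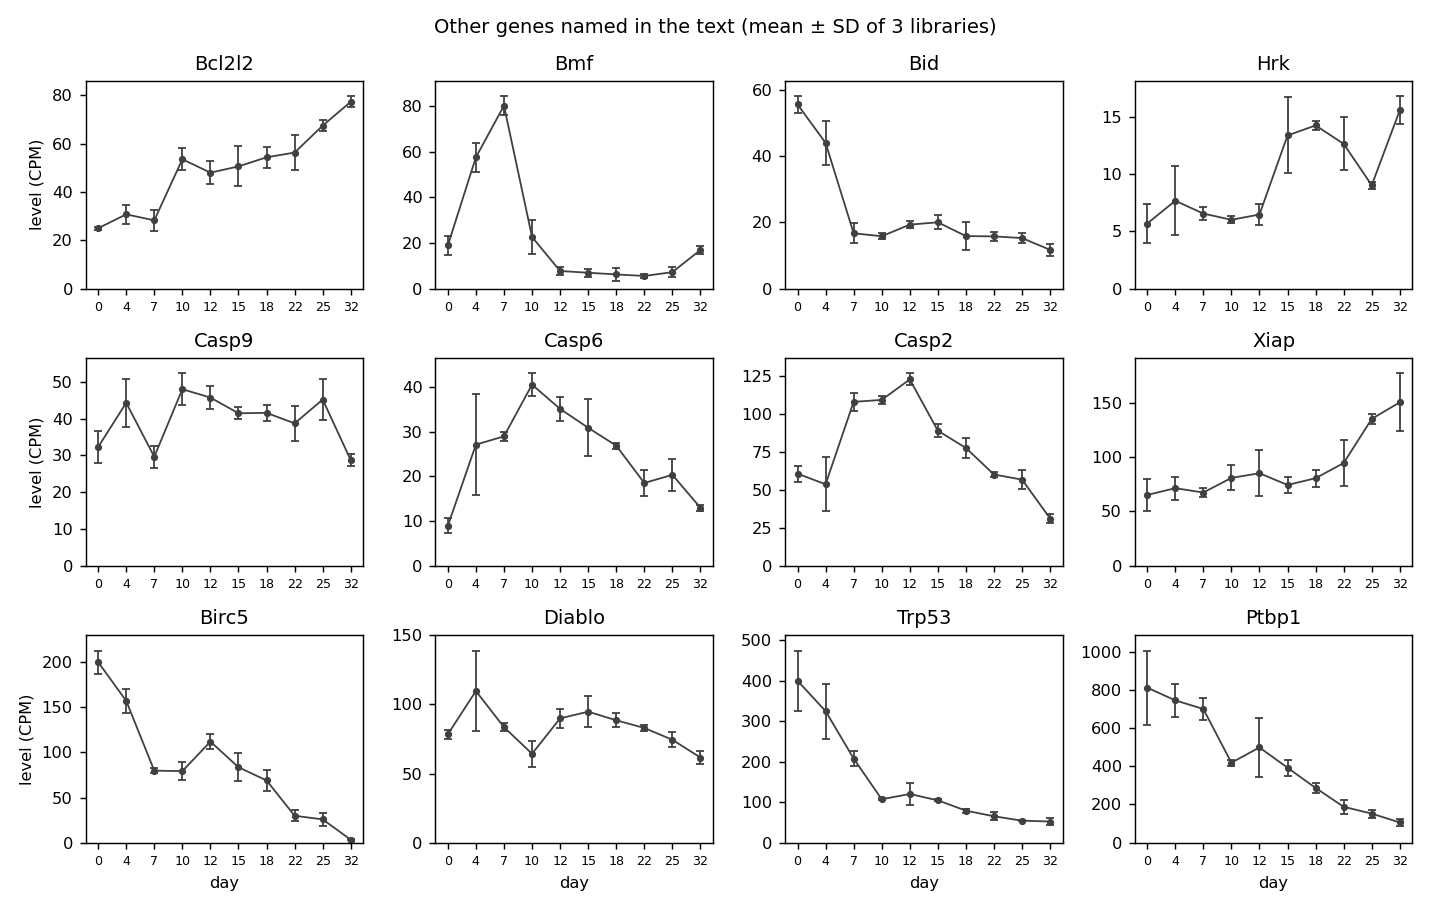
Levels (y axis, CPM, from 0) of 12 other genes named in the text by day (x axis, days spaced evenly), as mean ± SD of 3 libraries. Casp2, Birc5, Trp53 and Ptbp1 are lowest at D32, and Bcl2l2 and Xiap are highest there.

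By the correlation of day means, log2(CPM + 1), over the 10 days among 11983 genes, the gene most like Bax was Eif6 (r = 0.985), that most like Bak1 was Smpdl3b (0.988), and those most like Bcl2, Bcl2l1 and Mcl1 were Egfem1 (0.986), Oaz2 (0.962) and Dtd2 (0.994). For Pmaip1 it was Klhl21 (0.978), for Bcl2l11 Smad9 (0.977), for Apaf1 Pdss2 (0.913) and for Bbc3 Pla2g12a (0.823), the lowest of the 9. The third most like Bbc3 was Eda2r (0.773), a p53 pathway gene. Such values share the libraries and their scaling and describe 10 points each. Between the 9 genes, the highest r was 0.94, for Bax and Pmaip1, and the lowest -0.83, for Bcl2l1 and Pmaip1.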

How the data were processed

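RNA of 30 samples, from iPSCs to organoids of D32, was grouped by day from the sample titles. The submitters' processing notes name Trimmomatic 0.36, kallisto 0.42.4, edgeR with no version and the build GRCm38.p4. The authors deposited an estimated count per gene and per transcript, with the step from transcripts to genes not given in the sources used here, and a normalised signal per gene in CPM, deposited by the authors. Of the deposited columns, 9 (3 per file) match no listed sample and were not used. The use of strand in counting is not given in the sources used here.

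Estimated counts were rounded and fitted in R 4.3.3 with edgeR 4.0.16 (filterByExpr with a minimum count of 10 and total of 15, TMM, a mean per day over all libraries, quasi-likelihood F test, Benjamini-Hochberg adjustment over 19897 genes, called at adjusted p below 0.05). Transcript usage was tested with edgeR's diffSpliceDGE and transcript levels with the quasi-likelihood test; the latter was added after the Bak1 shares were seen. SE is that of the log2 change. Levels per kb sum transcript counts divided by their lengths. Alternatives used limma 3.58.1 and DESeq2 1.42.0. On simulated data the gene test recovered 68 of 100 genes changed by 1 log2 unit and 100 of 100 changed by 2 for D32 against D18. That simulation gave all genes the same spread and changed only well-counted genes. A permutation of 3 against 3 libraries cannot give p below 0.1, so no such test was used. Same-numbered libraries deviated together in all 15 pairs of neighbouring days from D10 to D25 (correlations of their deviations from day means, 0.162 to 0.451), but not in every pair of other days, and the steps from D10 to D25 were also fitted with the replicate number as a block, chosen after seeing the data. Since library set goes with replicate number from D10 to D25, these correlations do not tell the 2 apart. P-values measure the spread between libraries of 1 clone.

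The 9 genes and all lists were chosen with earlier results of these data known. From each other list the text names up to 3 called genes per span with the largest change, no overlap of libraries and at least 5 CPM on the higher day; Casp8 and Cdkn1a, outside this rule, were named after their values were seen. Of the genes this rule names, 1 is not reported here. Transcripts named hold at least 10% of a gene's counts on 1 day or more. Likeness used genes with at least 10 CPM on their highest day. Sequences and annotation came from GENCODE M21 and RefSeq.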

Additional observations from a re-analysis of the deposited data

How the results depend on the processing

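Of the 14 changes called for the 9 genes over the spans, 11 held under every alternative and 3 were lost under some; of the 21 calls over steps, 10 held under all, 11 were lost under another setting, 8 were lost when a library was left out, and none reversed. Without scaling factors the calls over steps numbered 13, with a range of 13 to 24 over 10 alternatives and 17 to 24 when each library was left out, and the median log2 change of all genes was 0.20 from D0 to D7 and 0.17 from D7 to D18. The count of transcripts called for usage, 1192, 644 and 624 over the 3 spans, was 781 to 828, 450 to 562 and 389 to 621 with a library left out, where fewer samples were fitted. Signs turned only for changes that did not pass: Bbc3 from D7 to D18 was -0.0133 with library set as a term, and with a library left out it was -0.51 to 0.13 from D0 to D7, -0.15 to 0.44 from D7 to D18 and -0.13 to 0.58 from D18 to D32. Bcl2l11 from D18 to D32 was 0.28 on transcript sums, an alternative chosen after seeing the data. With a library left out, the D0 to D7 change of Bcl2l1-001 was -0.0632 to 0.1334 in usage and -0.10 to 0.50 in level, that of Bak1-001 usage -0.014 to 0.0611, and the D18 to D32 level change of Bak1-002 -0.0065 to 0.2268. The causes were not tested. Over the spans, same-numbered libraries did not deviate together (correlations of -0.223 to 0.124), while from D10 to D25 they did; a fit of all libraries with the replicate block lost no span call and added Bcl2l1 from D0 to D7 (adjusted p = 0.047, edgeR) and Mcl1 from D18 to D32 (0.038). Leaving out the D0 libraries and D4 replicate 2, also chosen after seeing the data, left the counts of the caspase, p53, inhibitor and other BH3-only lists the same in the later spans. Counts were lowest for Pmaip1 at D25 (11 to 30 per library) and Bcl2 at D0 (18 to 43).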
